A study of Mus musculus with 46 samples.

Results

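The ERV1 loci described here are copies of 1 family of endogenous retroviruses in the mouse genome. They were chosen from a table of repeat elements measured in total RNA, by family name and by measured level: class LTR, family ERV1, and a mean of at least 2 over the log2 values of 4 libraries. Of 71980 ERV1 loci listed, 26773 were not at 0 in all 4 libraries and 1663 (2.31%) met the level; these 1663 are called members below. The same level was met by 103654 of 5147736 repeat loci of all kinds, so ERV1 members made up 1.6% of the loci tested. Since the level chose the members, their levels are given as a description and only differences between groups were tested.

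The study sequenced RNA from mouse cells with and without Arid1a, a SWI/SNF (BAF) subunit that binds DNA and helps the complex to shift nucleosomes, in 46 samples that form 23 groups of 2. The 4 total RNA libraries came from untreated B16F10 cells, a mouse melanoma line, that carried either a control guide RNA (sgScramble) or a guide against Arid1a (sgArid1a). The other 42 libraries were read through gene tables of polyA RNA: B16F10 cells with either guide as subcutaneous tumors on day 15, as untreated cultures, with PBS or interferon gamma (IFNg) for 24 h, or with DMSO for 72 h; sgArid1a cells with anti-IFNAR, a blocking antibody to the receptor of type I interferons, or with the JAK inhibitor ruxolitinib for 72 h; libraries labelled as double knockouts of Arid1a with Cgas or Sting; and sgScramble cells given DMSO, the compound BD98, or BD98 with anti-IFNAR for 72 h. MC38 colon cancer cells with sgScramble or sgArid1a completed the set, and Arid1a fl/fl mouse embryonic fibroblasts (MEFs) were given ethanol (wild type) or tamoxifen (Arid1a -/-) and taken on day 5. The labels do not say whether a guide line was a clone or a pool, nor whether the samples of a group came from separate cultures or animals, so p-values measure only the spread between these samples, which may be technical.

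An endogenous retrovirus is what remains of a retrovirus that entered the germline. A complete copy has an internal part with the viral genes between a pair of long terminal repeats (LTRs), which hold the promoter and the polyadenylation signal, while recombination leaves many copies as a single LTR. ERV1 is the gammaretrovirus-like class and includes murine leukemia viruses (MuLV, with LTRs named RLTR4), the VL30 elements (MMVL30, with LTRs named RLTR6) and the GLN elements (MMERGLN). In most cells such copies are kept silent by DNA methylation and by histone marks that Trim28 and Setdb1 place, and transcripts of copies that escape silencing can be sensed as foreign nucleic acid.

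Members also lie inside or beside genes, and the sequences that follow show where an ERV1 LTR is part of an annotated transcript or promoter of the mouse genome, build GRCm38 (mm10). The first pair are LTRs within the last exon of 2 noncoding RNAs that the polyA tables measure. ERV1 loci cover at least 50% of the genomic span of each, introns included, and the share of the RNA itself was not measured. The LTR sequences are copied from GENCODE vM21 transcripts, with matches to CCAAT and to TATAAA in capitals. Both strands were searched, and TTTATA is TATAAA on the other strand. In Brip1os, exon 2 of 2 holds an RLTR41C of 449 bases on the transcript's own strand, of which chr11:86209158-86209457 (+) is shown, and in D430020J02Rik, exon 2 of 2 holds an RLTR6C_Mm of 333 bases, of which chr12:116402345-116402644 (-) is shown. Both LTRs lie downstream of RLTR6-int pieces of the same transcript.
RLTR41C in Brip1os: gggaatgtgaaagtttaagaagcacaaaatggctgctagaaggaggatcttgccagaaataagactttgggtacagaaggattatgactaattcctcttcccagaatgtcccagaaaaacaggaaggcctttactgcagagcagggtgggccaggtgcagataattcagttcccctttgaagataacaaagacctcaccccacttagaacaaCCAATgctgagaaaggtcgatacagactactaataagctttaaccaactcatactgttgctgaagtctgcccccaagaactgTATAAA
RLTR6C_Mm in D430020J02Rik: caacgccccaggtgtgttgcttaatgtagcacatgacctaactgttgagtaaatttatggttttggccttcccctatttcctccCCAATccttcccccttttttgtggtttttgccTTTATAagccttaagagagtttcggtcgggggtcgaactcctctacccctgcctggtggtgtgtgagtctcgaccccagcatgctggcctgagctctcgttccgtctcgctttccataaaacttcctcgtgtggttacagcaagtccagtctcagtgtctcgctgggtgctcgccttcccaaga
Of all RefSeq promoter windows of 300 bases in this build, 37.4% held CCAAT and 13.6% held TATAAA on either strand, so these matches are a description of the sequences only.

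The other set are promoters. Of 32851 RefSeq windows of 250 bases before a transcript's start, 34 held some part of a member. With 1 chromosome left out, 8 windows, of 7 genes, held at least 20 bases of an LTR member. The 34 were counted with that chromosome included, so these counts cannot be compared. The 3 genes shown had the most LTR bases among these 8 windows. Of these genes, Resf1 is itself known for the silencing of retroelements together with Setdb1. Capitals mark the bases that belong to the LTR. They are MURVY-LTR in Dusp11 (chr6:85961668-85961917, minus strand, 112 LTR bases), LTR31 in Ogdh (chr11:6292329-6292578, plus strand, 89 LTR bases) and RLTR48B in Resf1 (chr6:149309164-149309413, plus strand, 83 LTR bases).
Dusp11 promoter: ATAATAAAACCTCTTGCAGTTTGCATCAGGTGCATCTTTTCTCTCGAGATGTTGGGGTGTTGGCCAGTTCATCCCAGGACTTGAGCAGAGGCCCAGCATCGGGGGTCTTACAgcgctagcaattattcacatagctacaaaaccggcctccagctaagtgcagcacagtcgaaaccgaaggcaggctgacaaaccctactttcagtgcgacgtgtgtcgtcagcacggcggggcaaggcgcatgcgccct
Ogdh promoter: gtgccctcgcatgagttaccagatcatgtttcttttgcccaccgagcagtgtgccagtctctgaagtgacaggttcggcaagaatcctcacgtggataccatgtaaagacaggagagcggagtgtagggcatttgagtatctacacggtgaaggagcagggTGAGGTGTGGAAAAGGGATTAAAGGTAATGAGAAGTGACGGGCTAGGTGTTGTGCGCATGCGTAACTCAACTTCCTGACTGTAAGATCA
Resf1 promoter: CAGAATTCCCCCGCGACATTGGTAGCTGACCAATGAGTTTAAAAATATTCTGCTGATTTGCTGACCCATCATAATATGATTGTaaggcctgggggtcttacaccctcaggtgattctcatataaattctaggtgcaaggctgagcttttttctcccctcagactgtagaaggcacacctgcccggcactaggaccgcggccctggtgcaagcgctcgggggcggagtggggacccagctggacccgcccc
The RLTR48B part of the Resf1 window held CCAAT once on each strand, and 33.8% of all windows of 250 bases held CCAAT on either strand. None of these 3 LTRs was called changed with the Arid1a guide: the differences, sgArid1a minus sgScramble in log2, were -0.13 ± 0.21 for the MURVY-LTR, -0.26 ± 0.21 for LTR31 and 0.13 ± 0.18 for RLTR48B. The genes themselves were not called in polyA RNA of untreated cultures either, with Dusp11 (an RNA phosphatase) at -0.27 ± 0.10, Ogdh (a subunit of the oxoglutarate dehydrogenase complex) at -0.15 ± 0.09 and Resf1 at -0.32 ± 0.13. Here and below, errors after ± are standard errors of the log2 difference from limma, with n = 2 libraries a group.

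The total RNA libraries held 62.6 to 73.0 M reads and the polyA libraries 8.7 to 38.8 M. All 7 melanocyte markers were at a log2 value of at least 8 in the untreated B16F10 cultures. They summed to 101.5 to 102.0 with sgScramble and to 99.5 to 100.1 with sgArid1a, where 3 of the 7 (Tyr, Mitf and Tyrp1) were called lower. T cell and endothelial markers were near or below 0. With either guide, 2 of 5 fibroblast markers reached 4, as did 1 of 4 epithelial, 1 of 4 macrophage and 1 of 4 skeletal muscle markers. Of these lists, 0 markers reached 8. In polyA RNA of untreated cultures Arid1a itself read 10.90 and 11.08 in the sgScramble libraries, against 10.43 and 10.39 in the sgArid1a libraries (log2 difference -0.58 ± 0.11, limma adjusted p = 0.00431). A guide alters the DNA and need not remove the transcript, and the total RNA table lists repeats only, so Arid1a could not be checked in the total RNA libraries themselves. In these bulk libraries, fewer cells that express a locus and less RNA per cell cannot be told apart. Near-identical proviruses share reads, and how reads with several matches were treated is not given in the sources used here, so the level of a single young copy is uncertain.

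Most members were low. Their median mean log2 value was 2.95, beside 2.83 for all repeat loci tested, 1277 members (76.8%) were under 4, and 26 reached 10. At the threshold, the nearest loci left out were an LTR37A at 1.9961 and an RMER5 at 1.9962, and the nearest taken in were an RLTR1B-int at 2.0020 and an MLTR73 at 2.0023. Both group means reached 2 in 1568 members, only the sgArid1a mean in 55 and only the sgScramble mean in 40. The members were 1183 LTR loci and 480 internal loci, in 1417 insertions when loci of 1 strand within 1000 bases were joined.

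**Figure D1:**
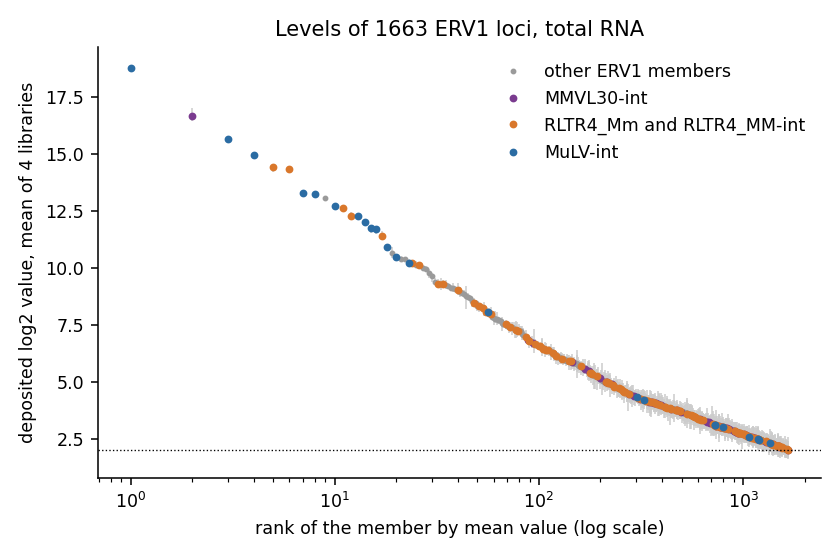
Mean deposited log2 value of each of the 1663 ERV1 members over 4 total RNA libraries (vertical axis) against its rank (horizontal axis, log scale); grey bars span the lowest to highest library and the dotted line marks the threshold of 2. MuLV-int loci (blue) and RLTR4 loci (orange) hold most of the top ranks, led by 1 locus at 18.73.

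The members' place in the genome differed with their divergence from the family's consensus sequence, which the repeat annotation lists. Age itself was not measured. A gene held 1187 members (71.4%): 163 touched an exon on the gene's strand, 137 an exon on the other strand, 239 lay in introns on the gene's strand and 648 in introns on the other strand, while 476 were intergenic. The 221 members with a divergence under 0.05 lay in genes in 45.7% of cases. The share was 66.8% for the 422 between 0.05 and 0.15, and 78.8% for the 1020 at 0.15 or above. Loci that missed the level were not placed, so these shares describe members and not the ERV1 loci of the genome. The part that the choice by level and the locus length have in the shares was not tested. The median log2 level of a whole locus was 3.58, 3.01 and 2.88 in the 3 divergence classes. Per kilobase of locus it was 3.01, 3.98 and 4.51, in the opposite order. The median length was 2868, 516.5 and 347.5 bases, and since members were chosen by the level of the whole locus, a short locus had to be high per kilobase to be a member. Per kilobase, members touching exons had medians of 5.61 (gene's strand) and 5.40 (other strand), above 4.35 and 4.14 for the intronic members and 3.89 for the intergenic ones. These levels are descriptions, and reads of a gene that cross a repeat are counted in the repeat as well.

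Most of the summed ERV1 value was assigned to a single locus. The MuLV-int locus at chr8:123426327-123434006 (minus strand, 7680 bases), at the site where C57BL/6 mice carry the ecotropic provirus Emv2, read 18.78 and 18.80 with sgScramble and 18.79 and 18.57 with sgArid1a. It held 55.8% of the summed unlogged value of all members. Since similar copies can share reads, how much of this came from the copy itself is uncertain. Its divergence was 0.147, and its mean log2 level per kilobase of locus was 15.79. Its 5′ LTR, annotated as 2 overlapping RLTR4_Mm loci, stood at 16.19 and 16.40 per kilobase and its 3′ LTR at 13.18 and 14.31. Both LTRs are annotated as pieces of 290 and 239 bases with divergences of 0.091 and 0.185. How reads that match both LTRs were placed is not known, so the levels of the 2 ends cannot be compared. An RLTR23 fragment directly beyond the 5′ LTR was at 0.00 in all 4 libraries and another beyond the 3′ LTR read 2.35 to 2.70. The provirus lies in an intron of Def8, on the other strand from that gene.

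The groups overlapped at this locus: the sgArid1a library of replicate 2 was lowest and the other 3 lay within 0.03 of each other. The difference was -0.11 ± 0.08 (limma adjusted p = 0.81). It depended on 1 library: without sgArid1a replicate 2 it was 0.00 (adjusted p = 0.992) and without sgArid1a replicate 1 it was -0.21 (adjusted p = 8.66e-10), with adjusted p between those 2 values under 7 alternatives in all. The 2 RLTR4_Mm loci of the 5′ LTR stood at -0.18 ± 0.12 (adjusted p = 0.761) and -0.13 ± 0.12 (0.848). Both were lower in each sgArid1a library than in either sgScramble library, and neither was called.

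Other MuLV-int copies followed in level. The copy at chr1:170942048-170949650 (plus strand, intergenic, divergence 0.001) read 15.65 and 15.67 with sgScramble and 15.74 and 15.50 with sgArid1a, a difference of -0.04 ± 0.11. The copy at chr5:23701114-23708710 (minus strand), which overlaps an exon of the noncoding gene AI506816, read 14.97, 15.01, 15.02 and 14.81 in the same order (-0.07 ± 0.11). A pair on chromosome Y, at chrY:4795991-4803596 and chrY:20664167-20671770, read 13.10 to 13.39 and 13.06 to 13.33. In all 4 of these copies, as in the provirus on chromosome 8, sgArid1a replicate 2 was the lowest library, and in these 4 sgArid1a replicate 1 was the highest. Identity between these copies was not measured. Similar copies can share reads, so they are not taken as separate evidence.

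The second highest member was not a provirus. An MMVL30-int fragment of 49 bases at chr14:50807519-50807567 (plus strand; 20.99 per kilobase in log2) lies inside the single exon of Rpph1, the RNA subunit of RNase P, which is transcribed from the other strand, and without strand its reads cannot be told apart from those of Rpph1. It read 16.66 and 16.46 with sgScramble and 16.99 and 16.44 with sgArid1a. The groups overlapped, with a difference of 0.16 ± 0.12 (limma adjusted p = 0.808). The value was 0.43 without sgArid1a replicate 2 and -0.12 without sgArid1a replicate 1, with adjusted p from 6.29e-19 to 0.981 over 7 alternatives. This fragment held 13.1% of the summed ERV1 value, and nearly all of the 13.2% of the MMVL30-int subfamily.

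Over all members, the Arid1a guide was accompanied by few differences that passed the test. Of 1663 members, limma called 1 higher and 3 lower with sgArid1a at an adjusted p under 0.05, which is 0.241% of members. Among the 3 called lower, an MLTR12 LTR was a member only through its sgScramble values. Over all repeat loci 0.369% were called, 0.107% higher and 0.262% lower. An unadjusted p under 0.05 was found in 138 members (8.3%), beside 7.95% of all loci. The 2 groups did not overlap in 38.2% of members, 339 higher and 297 lower with sgArid1a, beside 37.1% of all loci. A difference of at least 0.5 in log2, either way, was found in 79 members (4.75%), beside 4.49%. By each of these measures the ERV1 share was near the share over all repeat loci.

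**Figure D2:**
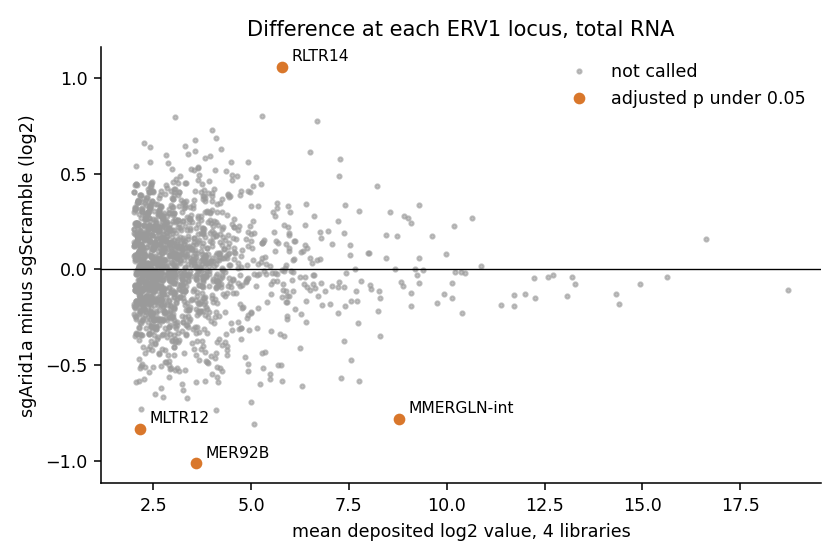
Difference in deposited log2 value, sgArid1a minus sgScramble (vertical axis), of each ERV1 member against its mean log2 value (horizontal axis), 2 total RNA libraries a group. The 4 called loci (orange, named) are an RLTR14 that was higher and an MER92B, an MLTR12 and an MMERGLN-int that were lower. The MLTR12 was a member only through its sgScramble values. The members with the highest means lie near 0.

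The difference had a median of 0.01 over the members, with quartiles at -0.14 and 0.17, and a range from -1.02 to 1.06; the median over all loci was 0.02. The mean log2 value of all members was 3.504 and 3.518 in the sgScramble libraries and 3.528 and 3.515 in the sgArid1a libraries. These means overlapped, and the difference of 0.010 gave p = 0.667 in an exact two-sided permutation test, where 2 libraries against 2 cannot go below 0.333. Over all repeat loci tested the same difference was 0.016. With libraries centred on the median of all loci, which shifts every locus of a library alike, it was -0.010.

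Split by kind, LTR members stood at 0.024 and internal members at -0.024, with no overlap between the library means of the 2 groups in either (exact p = 0.333, the smallest possible). Members with a divergence under 0.05 read 4.219 and 4.237 with sgScramble and 4.215 and 4.147 with sgArid1a, a difference of -0.046 (exact p = 0.333). None of these 221 least diverged members was called. The 476 intergenic members stood at -0.016 (exact p = 0.667). Against the other LTR families, the called share of ERV1 of 0.241% stood beside 0.408% for ERVK, 0.248% for ERVL and 0.274% for ERVL-MaLR, and the median difference of 0.007 beside 0.066, 0.034 and 0.035; the difference between families was not tested.

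The member called higher was an RLTR14 LTR of 340 bases at chr1:175911010-175911349 (minus strand). It read 5.35 and 5.15 with sgScramble and 6.22 and 6.40 with sgArid1a, so both sgArid1a libraries were above both controls. The difference was 1.06 ± 0.20 (limma adjusted p = 0.00813; 1.32 in the authors' deposited table, with an adjusted p of 0.124 there). The LTR lies whole inside the 3′ UTR of Exo1, an exonuclease of mismatch repair, on the other strand. Exo1 in polyA RNA of untreated cultures read 9.21 and 9.15 against 9.61 and 9.73, a rise of 0.50 ± 0.09 (adjusted p = 0.00446). The call at the LTR was lost in 1 of 7 alternatives, without sgArid1a replicate 2 (adjusted p = 0.0596; range 0.00607 to 0.0596).

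The largest fall was in an MER92B LTR of 193 bases at chr11:46146715-46146907 (plus strand), inside the 3′ UTR of Adam19, a membrane metalloprotease, on the same strand. The locus read 3.92 and 4.29 with sgScramble and 2.97 and 3.21 with sgArid1a, a difference of -1.02 ± 0.22 (limma adjusted p = 0.0246). Adam19 fell as well in polyA RNA, from 6.85 and 6.95 to 6.47 and 6.28 (-0.52 ± 0.11, adjusted p = 0.00989). The call at the LTR was lost in 3 of 7 alternatives: with centred libraries (adjusted p = 0.0538), without sgScramble replicate 2 (0.141) and without sgArid1a replicate 1 (0.201), over a range from 0.00363 to 0.201.

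An MLTR12 LTR of 418 bases at chr7:64271291-64271708 (minus strand) is annotated as intergenic, 1516 bases beyond the 3′ end of Trpm1, a cation channel gene of melanocytes. It read 2.52 and 2.60 with sgScramble and 1.80 and 1.66 with sgArid1a (-0.83 ± 0.18, limma adjusted p = 0.0281). Both sgArid1a values lay under the threshold of 2, so the locus was a member only through its sgScramble values. Trpm1 itself fell far more in polyA RNA, from 10.08 and 10.16 to 7.78 and 7.93 (-2.27 ± 0.10, adjusted p = 2.51e-08). The call was lost with centred libraries (adjusted p = 0.0524), with limma without a trend (0.0727) and without sgArid1a replicate 2 (0.225), over a range from 0.0307 to 0.225.

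The remaining fall was at an internal GLN locus, MMERGLN-int at chr2:156831133-156833492 (minus strand, 2360 bases), which overlaps an exon of the noncoding RNA Gm14230 on the same strand. It read 9.18 and 9.14 with sgScramble and 8.56 and 8.19 with sgArid1a, with a difference of -0.78 ± 0.18 (limma adjusted p = 0.0465). In the authors' deposited table the difference was -0.83 with an adjusted p of 0.0304, the only member under 0.05 there. The call was lost in 6 of 7 alternatives, with an adjusted p from 0.000401 to 0.239. For the low loci the authors' deposited table gave larger differences, such as -2.10 at MER92B and -4.51 at MLTR12, both with an adjusted p of 1.0; the deposited log2 values draw low values together.

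**Figure D3:**
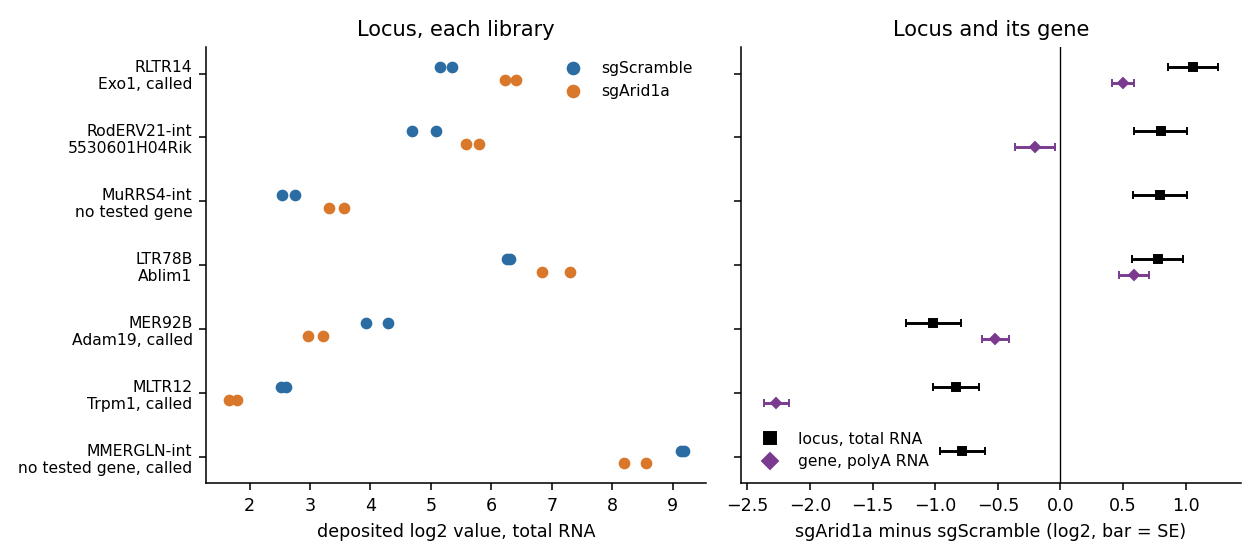
Left, deposited log2 values of the 4 called loci and of 3 further loci with large differences in each total RNA library (blue sgScramble, orange sgArid1a; horizontal axis in log2). Right, the difference sgArid1a minus sgScramble in log2 with its SE. Squares show the locus in total RNA and diamonds the gene that holds or neighbours it in polyA RNA. Exo1, Ablim1, Adam19 and Trpm1 moved to the same side as their locus, while 5530601H04Rik, not called, stood on the other side.

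Below the called rise, the 3 largest differences upward without overlap were not called. An LTR78B on chromosome 19, which overlaps a coding exon of Ablim1, a gene for an actin-binding protein, on the same strand, read 6.26 and 6.31 against 7.30 and 6.83 (0.78 ± 0.20, limma adjusted p = 0.115), and Ablim1 rose in polyA RNA by 0.59 ± 0.12 (adjusted p = 0.00638). A RodERV21-int locus on chromosome X, which overlaps an exon of 5530601H04Rik on the other strand, read 4.69 and 5.08 against 5.57 and 5.80 (0.80 ± 0.21, adjusted p = 0.121), while that gene stood at -0.20 ± 0.16 (adjusted p = 0.456). A MuRRS4-int locus on chromosome 5, with no tested gene nearby, read 2.54 and 2.75 against 3.56 and 3.32 (0.80 ± 0.22, adjusted p = 0.134).

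Members in genes that changed in polyA RNA of untreated cultures were counted next. There, 11.8% of 11604 genes were called, 5.84% higher and 5.98% lower with sgArid1a. Of 73 members within 50 genes called higher, 43 had a difference above 0 in total RNA, with a median of 0.046. Of 47 members within 37 genes called lower, 34 had a difference below 0, with a median of -0.127. The 874 members within 621 genes that were tested and not called had a median of 0.035, with 486 above 0. Members that touch an exon on the gene's strand were few: 8 lay in only 4 genes called higher, and 7 of these 8 were above 0 (median 0.235). Of 5 in 5 genes called lower, 4 were below 0 (median -0.502). On the other strand, in genes called higher, 7 of 14 members touching an exon were above 0 (10 genes, median 0.008). The same held for 20 of 39 in introns (29 genes, median 0.026). In genes called lower, 3 of 3 other-strand members touching an exon were below 0 (3 genes, median -0.119). So were 21 of 31 in introns (24 genes, median -0.116). The total RNA and polyA libraries are different samples, and members in 1 gene share its transcript.

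Averaged by subfamily, no ERV1 subfamily was called. Of the 111 subfamilies among the members, 67 had at least 5 members and were tested, and 0 of 67 passed an adjusted p under 0.05 in limma-trend, with a smallest adjusted p of 0.353. Across repeats of all kinds 0 of 839 subfamilies (0%) were called. An unadjusted limma p under 0.05 was found in 5 ERV1 subfamilies and in 70 of all kinds (8.34%). Of the 67, 47 stood above 0 and 20 below, with a median difference of 0.028 beside 0.013 over all subfamilies; the groups did not overlap in 18 higher and 8 lower (38.8%), beside 38.9% of all subfamilies.

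**Figure D4:**
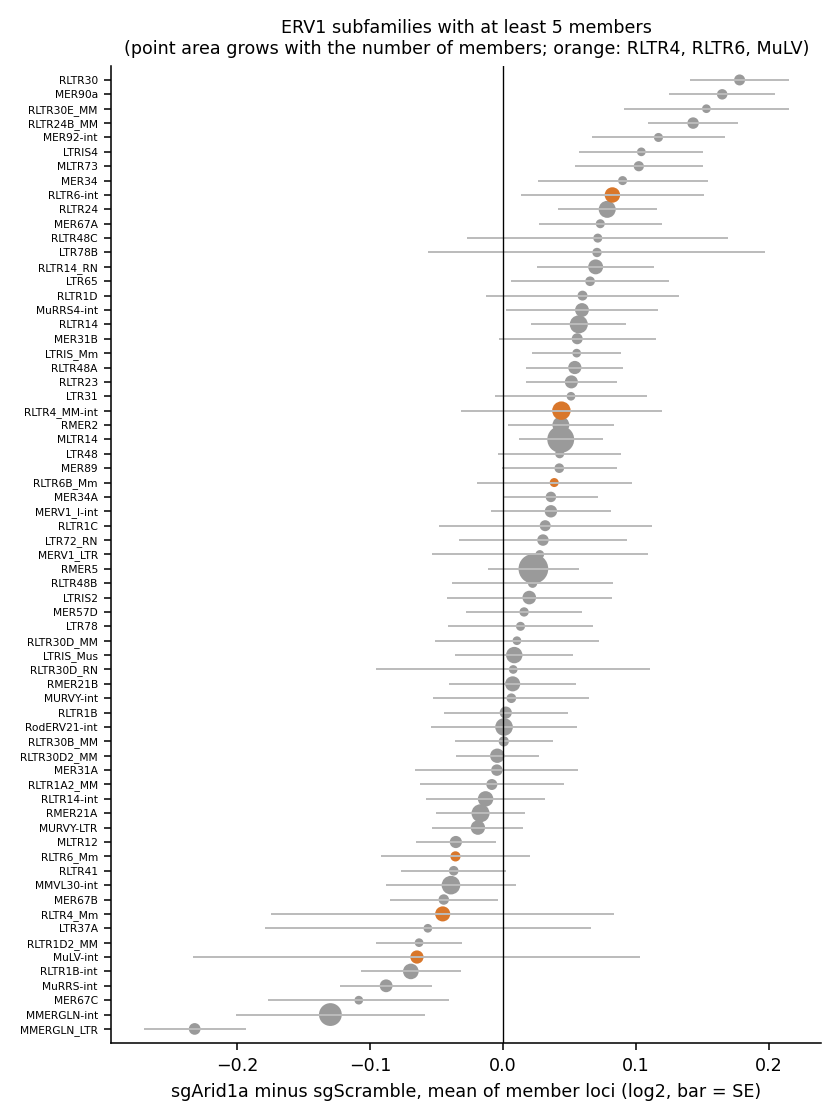
Difference in the mean deposited log2 value of member loci, sgArid1a minus sgScramble, for the 67 ERV1 subfamilies with at least 5 members (horizontal axis, bars are SE, 2 total RNA libraries a group). Point area grows with the number of members and RLTR4, RLTR6 and MuLV subfamilies are orange; values run from -0.23 (MMERGLN_LTR) to 0.18 (RLTR30) and none was called.

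The MuLV-related subfamilies together held most of the summed ERV1 value, and none was called. The 23 MuLV-int members held 72.3% of the summed unlogged ERV1 value and averaged 8.87 and 8.88 with sgScramble and 8.88 and 8.74 with sgArid1a (-0.06 ± 0.17, limma adjusted p = 0.943). The 33 RLTR4_Mm members, LTRs with 6.80% of the summed value, averaged 5.80 and 5.97 against 5.92 and 5.76 (-0.05 ± 0.13, adjusted p = 0.943). The 55 RLTR4_MM-int members, internal parts with a median divergence of only 0.021, averaged 4.43 and 4.44 against 4.55 and 4.41 (0.04 ± 0.08, adjusted p = 0.914). In all 3 subfamilies sgArid1a replicate 2 was the lowest library and the groups overlapped.

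Within these subfamilies the copies spread widely. MuLV-int members ranged from 2.30 to 18.73 in mean log2 value and had differences from -0.51 to 0.46, with 18 of 23 below 0. RLTR4_Mm members ranged from 2.16 to 14.40, with 23 of 33 below 0, and RLTR4_MM-int members from 2.11 to 12.60, with 32 of 55 above 0. Of these, 5 MuLV-int members and 5 of the RLTR4_Mm members lie on chromosome Y. Sequence-sharing copies of a subfamily are not independent, so these counts carry no test.

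The RLTR6 subfamilies gave small differences in both directions. RLTR6-int (35 members) averaged 4.40 and 4.40 with sgScramble and 4.53 and 4.44 with sgArid1a (0.08 ± 0.07, limma adjusted p = 0.805), and 24 of its members stood above 0. RLTR6_Mm (10 members) averaged 3.60 and 3.60 against 3.63 and 3.50 (-0.04 ± 0.06, adjusted p = 0.899), and RLTR6B_Mm (6 members) 2.59 and 2.56 against 2.65 and 2.57 (0.04 ± 0.06, adjusted p = 0.887). RLTR6C_Mm had 1 member, the LTR of D430020J02Rik shown above, and so was not tested as a subfamily. MMVL30-int, the internal part of VL30 (56 members), averaged 3.80 and 3.79 against 3.79 and 3.72 (-0.04 ± 0.05, adjusted p = 0.858).

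The other subfamilies with many members were diverged LTRs and the GLN internal part. RMER5 (165 members, median divergence 0.258) averaged 2.991 and 3.019 with sgScramble and 3.005 and 3.051 with sgArid1a (0.02 ± 0.03). MLTR14 (132 members) averaged 3.02 and 3.06 against 3.09 and 3.08 (0.04 ± 0.03). RLTR14 (52 members) stood at 0.06 ± 0.04 although it holds the member called higher, and RMER21A (52 members) at -0.02 ± 0.03. MMERGLN-int (91 members, median divergence 0.027, median length 7402 bases) averaged 4.73 and 4.68 against 4.57 and 4.58 (-0.13 ± 0.07, limma adjusted p = 0.746), with no overlap and with 68 of 91 members below 0.

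The GLN elements thus stood below 0 in both of their parts, and the LTR part gave the smallest p of all ERV1 subfamilies. MMERGLN_LTR (16 members) averaged 3.23 and 3.23 with sgScramble and 2.96 and 3.04 with sgArid1a, a difference of -0.23 ± 0.04 with 14 of 16 members below 0. Its limma p of 0.00131 became 0.353 after adjustment over 839 subfamilies, so it was not called. The smallest p among subfamilies above 0, also not called, were those of RLTR30 at 0.18 ± 0.04 (13 members), MER90a at 0.17 ± 0.04 (11 members) and RLTR24B_MM at 0.14 ± 0.03 (15 members), each with an adjusted p of 0.353. Outside the naming rule, these 3 and MMERGLN_LTR were picked after their values were seen, for their p.

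ERV1 sequence could also be followed in polyA RNA, through gene models of which at least 50% of the span is covered by listed ERV1 loci. There were 8 such models. Gm20362, Lelp1, Mir327, Mir6351 and Mir7688 were near 0 in every table (highest value 1.33). Siglech, a receptor of plasmacytoid dendritic cells with RLTR14 sequence over 51.2% of its span, read 3.70 to 3.87 in the 4 tumor libraries and 0.10 or less in every culture, under the mean of 4 that the test asks for. The remaining models were tested: Brip1os (chr11:86201360-86211192, plus strand, 69.7% ERV1, 7 loci) and D430020J02Rik (chr12:116401947-116405161, minus strand, 72.1% ERV1, 3 loci).

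In total RNA all 10 ERV1 loci of these 2 noncoding RNAs stood above 0, and none was called. The 7 loci within Brip1os had differences from 0.08 to 0.28, with the RLTR41C shown above at 10.02 and 10.14 with sgScramble and 10.35 and 10.26 with sgArid1a (0.23 ± 0.16, limma adjusted p = 0.787). The 3 loci within D430020J02Rik stood at 0.30, 0.33 and 0.49, and the RLTR6C_Mm read 5.67 and 5.89 against 6.11 and 6.11. Loci of 1 transcript share its reads and count as 1 observation each for Brip1os and D430020J02Rik.

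In polyA RNA of untreated B16F10 cultures Brip1os read 10.86 and 10.85 with sgScramble and 11.22 and 11.13 with sgArid1a, a rise of 0.32 ± 0.08 (limma adjusted p = 0.0267; 11.8% of genes were called). The groups did not overlap, but the call was lost in 4 of 8 alternatives (adjusted p 0.0209 to 0.217), among them without sgArid1a replicate 1 (0.217) or replicate 2 (0.109). D430020J02Rik read 7.91 and 7.57 against 7.93 and 7.93 (0.19 ± 0.13, adjusted p = 0.393). In DMSO-treated cultures, where 7.88% of genes were called, Brip1os stood at 0.19 ± 0.08 (10.80 and 10.77 against 10.97 and 10.98, adjusted p = 0.154) and D430020J02Rik at 0.01 ± 0.08. Neither was called in tumors, where 54% of genes were called (Brip1os -0.02 ± 0.06, D430020J02Rik 0.07 ± 0.08). The tumors also differed in markers of host cells: the 4 macrophage markers summed to 39.6 to 40.1 with sgScramble and 44.1 to 44.3 with sgArid1a, and the 4 skeletal muscle markers to 32.6 to 32.9 and 43.8 to 43.9, and their part in the values was not tested.

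**Figure D5:**
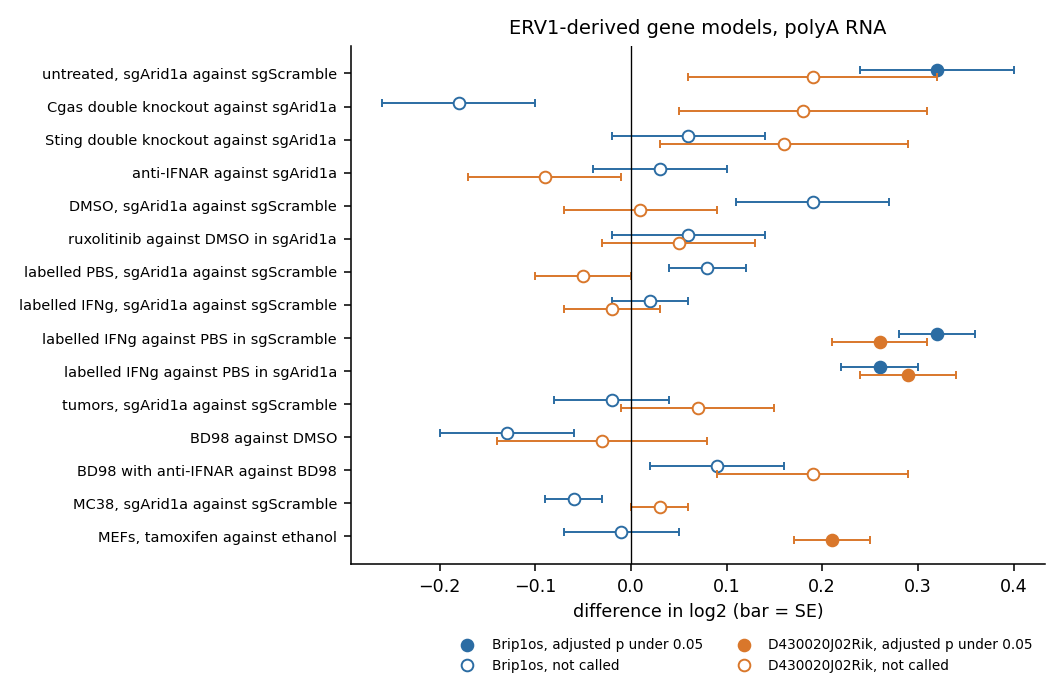
Difference in log2 value with its SE for Brip1os (blue) and D430020J02Rik (orange), noncoding gene models with at least 50% ERV1 over their span. Each polyA comparison has 2 libraries a group, and filled points passed an adjusted p under 0.05. There were 6 calls in 30 tests, of which 4 lie between libraries labelled IFNg and PBS.

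The libraries labelled as Cgas and Sting double knockouts did not have less Arid1a transcript than the untreated sgArid1a libraries (11.03 and 10.74 in the Cgas and 10.71 and 10.83 in the Sting double knockout, against 10.43 and 10.39), and their cell line label reads B16F11 to B16F14 where the title has B16F10. Cgas (Mb21d1 in the table) read 8.03 and 7.98 in the Cgas double knockout against 8.06 and 7.96 in sgArid1a, and Sting (Tmem173) 9.04 and 8.87 in the Sting double knockout against 9.47 and 9.51; a guide need not lower the transcript. Set against the untreated sgArid1a libraries, they gave no call for either RNA, although 28.7% and 31.8% of genes were called. Brip1os stood at -0.18 ± 0.08 in the Cgas double knockout (adjusted p = 0.126) and 0.06 ± 0.08 in the Sting double knockout; D430020J02Rik stood at 0.18 ± 0.13 and 0.16 ± 0.13. Anti-IFNAR against sgArid1a gave 0.03 ± 0.07 and -0.09 ± 0.08 (0.0171% of genes called), and ruxolitinib against DMSO in sgArid1a cells 0.06 ± 0.08 and 0.05 ± 0.08 (0.221% called). BD98 against DMSO gave -0.13 ± 0.07 and -0.03 ± 0.11 in edgeR (49.9% called), and adding anti-IFNAR to BD98 0.09 ± 0.07 and 0.19 ± 0.10 (1.49% called). These comparisons share libraries: the sgArid1a libraries are the treated side of the guide comparison and the control side of the knockouts and of anti-IFNAR.

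Of the other cell kinds, MEFs gave 1 call and MC38 cells none; a difference between the 2 RNAs was not tested. In MEFs, where 9.71% of genes were called, D430020J02Rik read 6.74 and 6.77 with ethanol and 6.98 and 6.94 with tamoxifen, a rise of 0.21 ± 0.04 (limma adjusted p = 0.00908), while Brip1os stood at -0.01 ± 0.06. In MC38 cells, where 21.2% were called, Brip1os stood at -0.06 ± 0.03 (adjusted p = 0.186) and D430020J02Rik at 0.03 ± 0.03. The epithelial markers that a colon cancer line could show were under a log2 value of 4 in MC38 (0 of 4), with Cdh1, Epcam and Krt18 under 1. Since MEFs of the 2 groups differ by tamoxifen as well as by Arid1a, drug and deletion cannot be told apart.

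In the IFNg experiment the labels and the data disagreed, so its libraries are named by label only. Irf1, an interferon-response gene looked up after its values were seen, read 9.81 and 9.81 in the libraries labelled sgScramble PBS, 12.53 and 12.34 in those labelled sgArid1a PBS, 10.13 and 10.07 in those labelled sgScramble IFNg, and 13.04 and 12.97 in those labelled sgArid1a IFNg; Gbp2 was in the same order. These genes thus followed the guide label rather than the IFNg label. Between libraries labelled IFNg and PBS, Brip1os was higher by 0.32 ± 0.04 in those labelled sgScramble (limma adjusted p = 5.63e-06; 35% of genes called) and by 0.26 ± 0.04 in those labelled sgArid1a (4.54e-05; 42.3% called). D430020J02Rik was higher by 0.26 ± 0.05 (0.000632) and 0.29 ± 0.05 (0.000194). Between libraries labelled sgArid1a and sgScramble neither was called, with Brip1os at 0.08 ± 0.04 under the PBS label (2.72% called) and 0.02 ± 0.04 under the IFNg label (6.73% called), and D430020J02Rik at -0.05 ± 0.05 and -0.02 ± 0.05.

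Genes that act on retroviral copies were read in polyA RNA of untreated cultures, from a list of 29 silencing factors and 10 restriction or entry factors. Of the 29 silencing factors 2 were called higher with sgArid1a and 0 lower (6.9%, beside 11.8% of all genes): Uhrf1, which brings Dnmt1 to replicated DNA, at 0.61 ± 0.09 (limma adjusted p = 0.00104), and Chaf1a, the large subunit of the histone chaperone CAF-1, at 0.55 ± 0.12 (0.011). The members of the central pathway were not called: Trim28 read 12.07 and 12.01 with sgScramble and 12.28 and 12.17 with sgArid1a (0.18 ± 0.09, adjusted p = 0.199). Setdb1, its histone methyltransferase, stood at 0.25 ± 0.10 (0.119), and Zfp809, which directs Trim28 to the primer binding site of MuLV, at 0.12 ± 0.15 (0.634). The list's median difference was 0.11, beside 0.011 over all genes.

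Of 9 tested restriction and entry factors 3 were called higher and 1 lower (44.4%, beside 11.8% of all genes). Apobec3 was too low to test (1.39 to 1.50). Bst2, the tetherin that holds budding virus at the membrane and that interferon induces, read 8.58 and 9.27 with sgScramble and 9.88 and 9.71 with sgArid1a (0.87 ± 0.17, limma adjusted p = 0.00524). Trim30a, an interferon-induced gene, stood at 0.52 ± 0.14 (0.0267) and Samhd1, which depletes nucleotides needed for reverse transcription, at 0.32 ± 0.09 (0.0447). Slc7a1, the cationic amino acid transporter by which ecotropic MuLV enters cells, fell from 12.48 and 12.48 to 11.91 and 11.71 (-0.67 ± 0.09, adjusted p = 0.000521). Xpr1, the receptor of xenotropic and polytropic MuLV, stood at -0.25 ± 0.10 (0.145). The number called higher over both lists, 5, was 1 without sgArid1a replicate 1, 2 without sgArid1a replicate 2 and 10 without sgScramble replicate 2, so it depended on single libraries.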

How the data were processed

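Libraries were prepared with a stranded mRNA kit, per the labels' protocols, which give the same kit for the total RNA samples. The aligner was STAR 2.5.3a, the genome GRCm38/mm10 and the counter HOMER, per the submitters' processing notes. HOMER counted repeats locus by locus and genes by exon with no strand option stated, per the file headers. The repeat table and 7 gene tables hold log2 values deposited by the authors, in which low values are drawn together; the BD98 table holds deposited raw counts. The authors' log2 differences and adjusted p-values in the deposited tables were used only where named. Counts had been allowed for in the design; log2 values were tested instead.

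Log2 values were tested with limma 3.58.1 (limma-trend, R 4.3.3) on repeat loci with a mean of at least 2 and genes with a mean of at least 4, and counts with edgeR 4.0.16 (quasi-likelihood), with DESeq2 1.42.0 as an alternative. Benjamini-Hochberg adjustment of p-values ran over each whole table, and a call is an adjusted p under 0.05. Subfamilies are means over loci, with at least 5 members. Depth per total RNA library was 62.6 to 73.0 M reads, and intervals of counting error are not given because the values are not counts. Gene positions come from GENCODE vM21 and promoters from RefSeq, in the build of the files. Named are the 8 highest members, up to 8 called a direction (or the 3 largest differences without overlap), the 6 largest subfamilies, all RLTR4, RLTR6 and MuLV subfamilies, every ERV1-derived gene model, up to 8 called factors and fixed factors. Members, lists and tests were chosen with earlier results of these data known. The scripts were tested on simulated data. For 2 columns of per-sample values with no sample here, the values were not used. The alternatives tried were other thresholds on the mean, a replicate block, centring, no trend, other subfamily sizes and each library left out.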

Additional observations from a re-analysis of the deposited data

How the results depend on the processing

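Alternative values for single loci all kept the threshold of 2 on the mean. Of 432 alternative values for 56 single loci, subfamilies and gene models, 384 kept direction and side of the threshold. Of the rest, 17 lost a call, 6 gained one and 25 changed direction, all 25 of results that were not called. With a library left out, these ranged from -0.21 to 0.00 for MuLV-int on chromosome 8, -0.12 to 0.43 for MMVL30-int on chromosome 14, -0.16 to 0.08 and -0.18 to 0.03 for MuLV-int on chromosomes 1 and 5, and -0.22 to 0.06 and -0.17 to 0.10 for the pair on chromosome Y. Subfamilies ranged from -0.13 to 0.00 (MuLV-int), -0.02 to 0.11 (RLTR4_MM-int), -0.13 to 0.04 (RLTR4_Mm), -0.10 to 0.03 (RLTR6_Mm) and -0.00 to 0.05 (RMER5). As log2 of the mean unlogged value MLTR14 was -0.01, MMVL30-int 0.16 and RLTR6_Mm 0.05, and RLTR6_Mm was 0.14 at a mean of at least 3. Among gene models D430020J02Rik ranged from -0.07 to 0.09 with DMSO, -0.07 to 0.03 under the IFNg label, -0.11 to 0.06 with BD98 and -0.00 to 0.07 in MC38, and Brip1os from -0.00 to 0.07 with anti-IFNAR, -0.01 to 0.05 under the IFNg label and -0.05 to 0.04 in MEFs. Members called higher, 1, were 4 at a mean of at least 3 and 1 to 3 with a library left out; members called lower, 3, were 0 at a mean of at least 1, 0 with centred libraries, 1 without a trend and 1 to 5 with a library left out. The mean difference of 0.010 was -0.010 with centred libraries, 0.003 to 0.018 with a library left out and, in alternatives chosen after seeing the data, -0.016 over members outside genes and -0.046 at a divergence under 0.05. ERV1 subfamilies called numbered 0 in 12 of 12 alternatives. Factors called higher, 5, were 3 with no filter, 2 with only the 2 groups compared and 1 to 10 with a library left out; the factor called lower, 1, was 1 to 4. Calls of gene models, 6, were 5 to 7 with a library left out. The causes were not tested.

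Replicate numbers are shared by the groups, but the labels tie them to no batch or culture. Same-numbered total RNA libraries did not deviate together (correlation -0.04 over ERV1 members), and in the polyA comparisons the correlation ran from -0.51 in tumors to 0.69 in MEFs, so with 2 pairs a comparison the numbers were not taken to pair the samples. With a replicate block 1 member was called higher and 2 lower, 0 subfamilies, 5 gene model calls, and 3 factors higher and 1 lower. Crossing the numbers, an alternative added after seeing the data, gave 6 gene model calls, and 5 factors higher and 1 lower.

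With 2 libraries a group and values drawn together at low levels, small differences at low loci were not detectable. When a group is left with 1 library, that library is assumed to vary like the others.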
